A study of Rattus norvegicus with 6 samples.

Results

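The aryl hydrocarbon receptor (AHR) group of 9 genes was followed in cultured rat oligodendrocyte progenitor cells (OPCs), from which the myelin-forming oligodendrocytes arise. The genes were chosen by name, as the receptor Ahr, its partner Arnt, the repressor Ahrr, and the known target genes Tiparp, Cyp1a1, Cyp1a2, Cyp1b1, Aldh3a1 and Nqo1. All 9 were found among the 32883 genes of the deposited table. With ZJU-37, Cyp1a1 and Aldh3a1 rose from low levels by 3.5-fold and 4.22-fold in mean level, and Tiparp rose by 1.42-fold. Ahr, Arnt, Ahrr, Cyp1b1 and Nqo1 did not pass the test, and Cyp1a2 was almost absent.

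AHR is a ligand-activated transcription factor of the bHLH-PAS family that senses dioxins, polycyclic aromatic hydrocarbons and products of tryptophan. Without ligand it rests in the cytosol in a complex with HSP90 and p23. With ligand it enters the nucleus, pairs with ARNT and binds response elements at its target genes, of which Cyp1a1 is the classical one. AHRR and TIPARP are themselves induced by AHR and restrain it, AHRR as a repressor that also binds ARNT and TIPARP as an enzyme that ADP-ribosylates the receptor. In the central nervous system AHR is best known from astrocytes and microglia, where it limits inflammation.

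The design had 2 groups of 3 libraries each. Cells came from cerebral cortices of Sprague Dawley rats at postnatal day 0, given as day 0 to 2 in the methods of the study. The cortices of 2 rats were used per culture. They were grown for 7 days in serum, separated by shaking and moved to Neurobasal medium with B27 and N2. One group then received 5 µM ZJU-37, a RIPK1 kinase inhibitor derived from Nec-1s, and the other an equal volume of its solvent DMSO. The labels give 36 h of treatment, whereas the methods of the study give a shorter time. Poly-A RNA was sequenced to between 13935865 and 24097927 counts per library. Levels are given in CPM, which are counts scaled to the size of the library. A gene with 3 counts has 0.124 CPM in the deepest library and 0.215 CPM in the shallowest, which concerns counting error alone. The repeats are called biological in the methods, and plate wells (n = 3) in a figure legend of the study. No label ties a library to an animal, so p-values measure the spread between these libraries. Same-numbered libraries deviated together, so the replicate numbers were treated as pairs, and pair differences are given. Values of a gene are listed in the order of replicates 1, 2 and 3.

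Promoters of 7 of the 9 genes were found in the set of RefSeq promoters used here (assembly GRCr8), and those of Cyp1a1 and Aldh3a1 were not found in it. The 250 bases before the start were searched on both strands for TNGCGTG, the AHR-ARNT response element, and for its core GCGTG, which lies within it. The element was present in 2 of the 7, Ahrr and Cyp1b1, against 4.09% of all 33469 promoters. The core was present in 5 of the 7 (Ahrr, Arnt, Cyp1b1, Nqo1 and Tiparp), against 25.9% of all. These shares were not matched for the content of G and C, which ran from 44.0% in Cyp1a2 to 75.2% in Ahr. The antioxidant response element TGACNNNGC was found in Arnt, once on each strand, and in 10.1% of all promoters. The promoters of 3 genes are shown 5′ to 3′ on the strand of the gene, that of Tiparp because it rose and has an entry, and those of Ahrr and Cyp1b1 because they hold the element. Capitals mark the core, written CACGC where it lies on the other strand. They are Tiparp at chr2:152063519-152063768, plus strand, Ahrr at chr1:30821969-30822218, plus strand, and Cyp1b1 at chr6:21094315-21094564, plus strand, all GRCr8.
Tiparp: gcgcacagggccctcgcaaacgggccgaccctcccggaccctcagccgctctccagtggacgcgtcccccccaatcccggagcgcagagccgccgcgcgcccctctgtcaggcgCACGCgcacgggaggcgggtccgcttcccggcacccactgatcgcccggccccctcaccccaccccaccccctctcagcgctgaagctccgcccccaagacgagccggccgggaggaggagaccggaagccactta
Ahrr: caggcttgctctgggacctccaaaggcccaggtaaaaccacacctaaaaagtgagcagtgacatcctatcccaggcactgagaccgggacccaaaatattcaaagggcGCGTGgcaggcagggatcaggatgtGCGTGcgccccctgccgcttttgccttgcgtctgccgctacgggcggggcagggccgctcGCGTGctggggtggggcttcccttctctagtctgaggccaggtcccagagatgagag
Cyp1b1: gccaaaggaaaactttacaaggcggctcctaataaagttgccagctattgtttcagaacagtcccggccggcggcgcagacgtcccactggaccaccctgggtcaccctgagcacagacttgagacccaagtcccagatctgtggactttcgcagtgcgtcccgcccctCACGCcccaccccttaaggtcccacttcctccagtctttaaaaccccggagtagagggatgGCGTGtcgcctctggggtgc
Counted from the start, with the last base before it as -1, the core in Tiparp lies from -136 to -132, and the full elements lie from -59 to -53 in Ahrr and from -22 to -16 in Cyp1b1. A match to these letters is a description of the window and not a measured binding site.

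Values below are CPM scaled by TMM, a normalization for library composition, unless stated otherwise. ZJU-37 was set against DMSO by the quasi-likelihood test of edgeR on the whole table, with p-values adjusted over the 14670 genes that passed a filter on low counts. Of the 9 genes, 8 passed the filter. A gene is called when its adjusted p is under 0.05, and this held for 3 of the 8, all higher with ZJU-37. Among all tested genes 9.43% were called higher and 5.58% lower. Lower calls among the 8 numbered 0 in edgeR, 0 at an unadjusted p under 0.05 and 0 with DESeq2 and limma. The median log2 fold change was 0.32 over the 8 genes and -0.03 over all tested genes. When the replicate number was added as a block, 3 of the 8 were called higher and 0 lower, against 16.2% and 15.9% of all tested genes (32.1% in either direction).

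**Figure D1:**
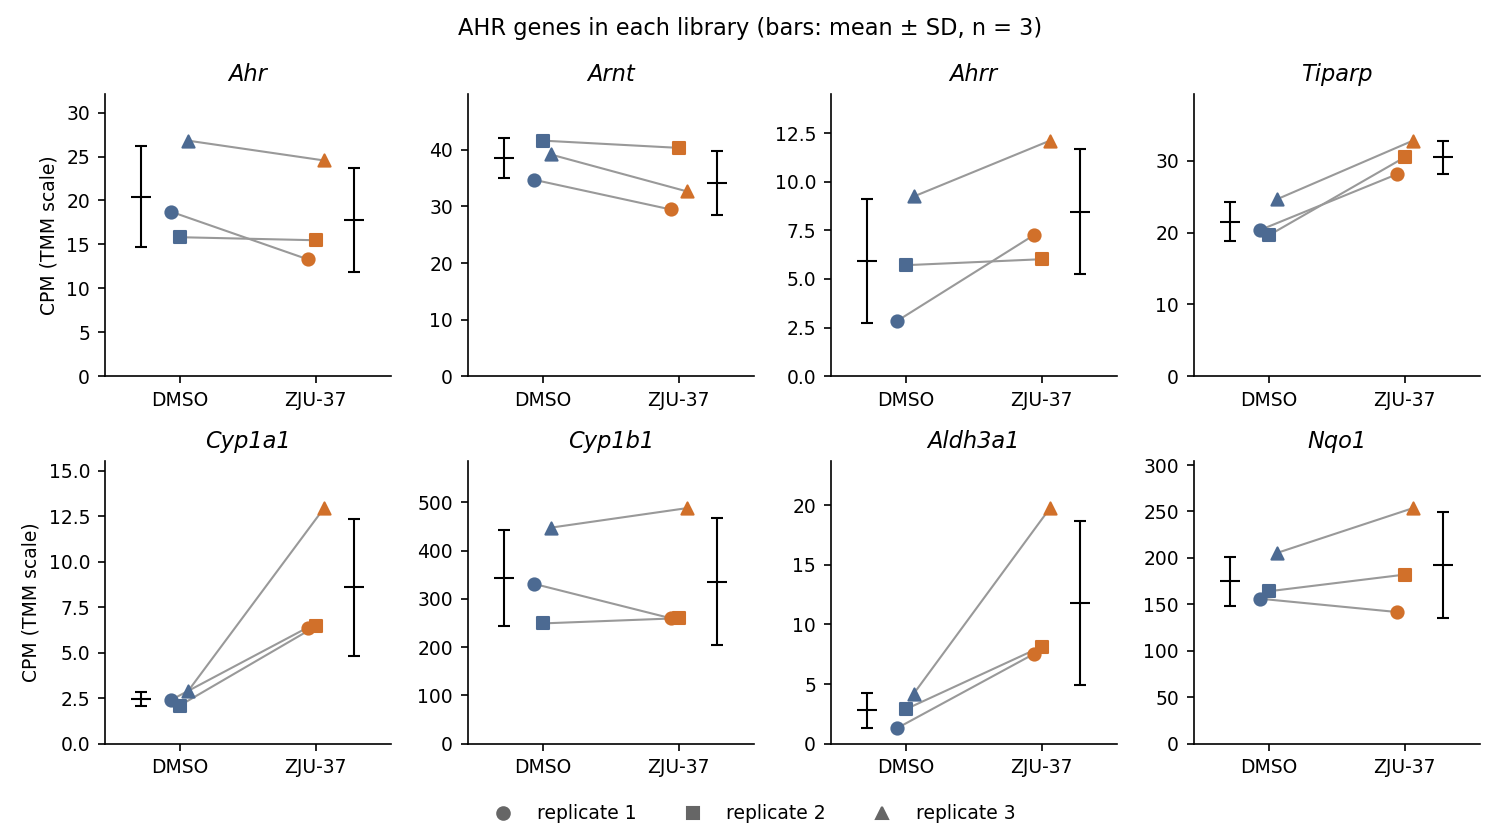
Each panel plots one gene in CPM (linear axis from 0) for the 3 DMSO and the 3 ZJU-37 libraries, with lines joining libraries of the same replicate number and bars for mean ± SD. The groups are apart in Tiparp, Cyp1a1 and Aldh3a1 and overlap in the other 5 genes, and replicate 3 is the highest of its group in every panel except Arnt.

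The receptor itself was expressed at a modest level and was not higher with ZJU-37. The DMSO libraries held Ahr at 18.7, 15.8 and 26.8 CPM, and the ZJU-37 libraries at 13.3, 15.5 and 24.6 CPM. The groups overlapped, and replicate 3 was the highest library of both. On the log2 scale Ahr had a fitted difference of -0.20 (standard error 0.29, 95% interval -0.89 to 0.49, adjusted p = 0.708 in edgeR). Within pairs 1, 2 and 3 the log2 difference of Ahr was -0.49, -0.03 and -0.13, all lower. Without DMSO replicate 3 the fitted value was 0.05, in a fit that had no block and kept its partner, ZJU-37 replicate 3. The block fit on all libraries gave -0.21 (adjusted p = 0.170 in edgeR).

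Arnt, which encodes the DNA-binding partner of AHR, stood at 34.7, 41.6 and 39.2 CPM with DMSO. With ZJU-37 it stood at 29.5, 40.3 and 32.7 CPM. The ZJU-37 library was the lower one in each pair, but the groups overlapped. For Arnt the log2 fold change was -0.17 (standard error 0.13, adjusted p = 0.458 in edgeR, and 0.0783 with the block).

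Of the repressors, Tiparp rose and Ahrr did not pass the test. Tiparp, on chromosome 2 from 157316266 to 157341469 (plus strand) in the authors' table, which names no genome build, stood at 20.4, 19.6 and 24.6 CPM with DMSO. With ZJU-37 it stood at 28.1, 30.5 and 32.8 CPM, each above every DMSO library. Its group means were 21.5 ± 2.71 CPM and 30.5 ± 2.35 CPM (SD over 3 libraries). Tiparp thus had a log2 fold change of 0.50 (standard error 0.11, 95% interval 0.23 to 0.77, adjusted p = 0.0289 in edgeR). Pairs 1, 2 and 3 differed by 0.46, 0.64 and 0.41 on the log2 scale, a narrower range than in Cyp1a1 or Aldh3a1. The adjusted p of Tiparp was 0.0907 without DMSO replicate 1, 0.102 without DMSO replicate 2, 0.0694 without ZJU-37 replicate 2 and 0.0989 without ZJU-37 replicate 3.

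Ahrr was measured at 2.85, 5.71 and 9.24 CPM with DMSO and at 7.25, 6.01 and 12.1 CPM with ZJU-37. Each of the 3 pairs had more Ahrr with ZJU-37, by 1.31, 0.07 and 0.39 on the log2 scale, but most of the difference lay in pair 1 and the groups overlapped. Ahrr had a log2 fold change of 0.50, as large as that of Tiparp, with a standard error of 0.45 (95% interval -0.59 to 1.59, adjusted p = 0.538 in edgeR, and 0.111 with the block). Leaving out each library gave values from 0.17 (without ZJU-37 replicate 3) to 0.97 (without DMSO replicate 3).

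Among the target genes, the 2 with the largest increases were enzymes with few reads in the DMSO libraries. Cyp1a1 encodes a cytochrome P450 that oxidizes polycyclic aromatic hydrocarbons and is the most used readout of AHR activity. It is listed on chromosome 8 from 62472095 to 62478147 (plus strand). Cyp1a1 received 33, 37 and 54 counts with DMSO and 118, 133 and 313 counts with ZJU-37. These are 2.41, 2.09 and 2.87 CPM with DMSO against 6.38, 6.45 and 12.9 CPM with ZJU-37. Every ZJU-37 library was above every DMSO library by more than the spread of the DMSO group, and ZJU-37 replicate 3 stood above the rest. Group means of Cyp1a1 were 2.46 ± 0.39 CPM and 8.59 ± 3.77 CPM (SD over 3 libraries). This is a log2 fold change of 1.81 for Cyp1a1 (standard error 0.33, 95% interval 1.01 to 2.60, adjusted p = 0.0133 in edgeR), higher than that of 99.6% of the tested genes. Pairs 1, 2 and 3 differed by 1.37, 1.58 and 2.13 on the log2 scale. The adjusted p of Cyp1a1 was 0.0524 without DMSO replicate 1 and 0.0601 without DMSO replicate 2, with log2 fold changes of 1.79 and 1.70. Without ZJU-37 replicate 3 the log2 fold change was 1.41 and the adjusted p 0.0163, still called.

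Aldh3a1 encodes an aldehyde dehydrogenase that belongs, with Cyp1a1 and Nqo1, to the classical AHR gene battery. It is listed on chromosome 10 from 47490153 to 47499876 (plus strand). Its counts were 18, 51 and 79 with DMSO and 139, 168 and 478 with ZJU-37. In CPM, Aldh3a1 had 1.31, 2.88 and 4.19 with DMSO against 7.52, 8.15 and 19.8 with ZJU-37. The groups did not overlap, and replicate 3 was the highest library in both. Aldh3a1 had a log2 fold change of 2.06 (standard error 0.53, 95% interval 0.77 to 3.34, adjusted p = 0.0493 in edgeR, and 6.4e-05 with the block). Pairs 1, 2 and 3 differed by 2.42, 1.47 and 2.21. This was the largest change among the 8 genes, but its adjusted p lay at the threshold without the block. It was above 0.05 in 5 of the 6 fits that each left out a library, at 0.115, 0.146 and 0.0697 without DMSO replicates 1, 2 and 3 and at 0.0681 and 0.114 without ZJU-37 replicates 2 and 3.

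The groups did not overlap in Tiparp, Cyp1a1 and Aldh3a1, all 3 being higher with ZJU-37, as 19.0% of all tested genes were (35.2% counting both directions). For each of these genes a two-sided exact permutation test on log2 CPM, which ignored the pairs, gave 0.1. Groups of 3 against 3 libraries that do not overlap always give this value, below which the test cannot go. It therefore adds nothing to the lack of overlap.

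The other targets were abundant or absent and showed no called change. Cyp1b1 encodes a cytochrome P450 that metabolizes estrogens and hydrocarbons. It stood at 331, 249 and 448 CPM with DMSO and at 259.9, 259.9 and 488 CPM with ZJU-37. Replicate 3 was again the highest of both groups, and the log2 fold change of Cyp1b1 was -0.03 (standard error 0.32, 95% interval -0.79 to 0.73, adjusted p = 0.969 in edgeR). Within pairs 1, 2 and 3 it differed by -0.35, 0.06 and 0.13.

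Nqo1 encodes a quinone reductase that both AHR and the oxidative stress factor NRF2 induce. Nqo1 was measured at 156, 164 and 205 CPM with DMSO and at 142, 182 and 254 CPM with ZJU-37. Its log2 fold change was 0.14 (standard error 0.22, 95% interval -0.39 to 0.67, adjusted p = 0.742 in edgeR), and pairs 1, 2 and 3 differed by -0.14, 0.15 and 0.31. For both genes the groups overlapped. With the block, which takes up the differences between replicate numbers, the log2 fold change was -0.05 (standard error 0.096) for Cyp1b1 and 0.11 (standard error 0.082) for Nqo1, and neither was called.

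Cyp1a2, the liver-typical neighbour of Cyp1a1 on chromosome 8, had 1 count in all, in ZJU-37 replicate 2. It had 0 counts in the other 5 libraries, which allows up to 0.215 CPM in the shallowest of them, and was not tested. Cyp1a1 and Cyp1a2 are similar in sequence, and how reads matching several genes were counted is not given in the sources used here. The annotated spans of the 9 genes overlap those of 0 other genes of the table.

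**Figure D2:**
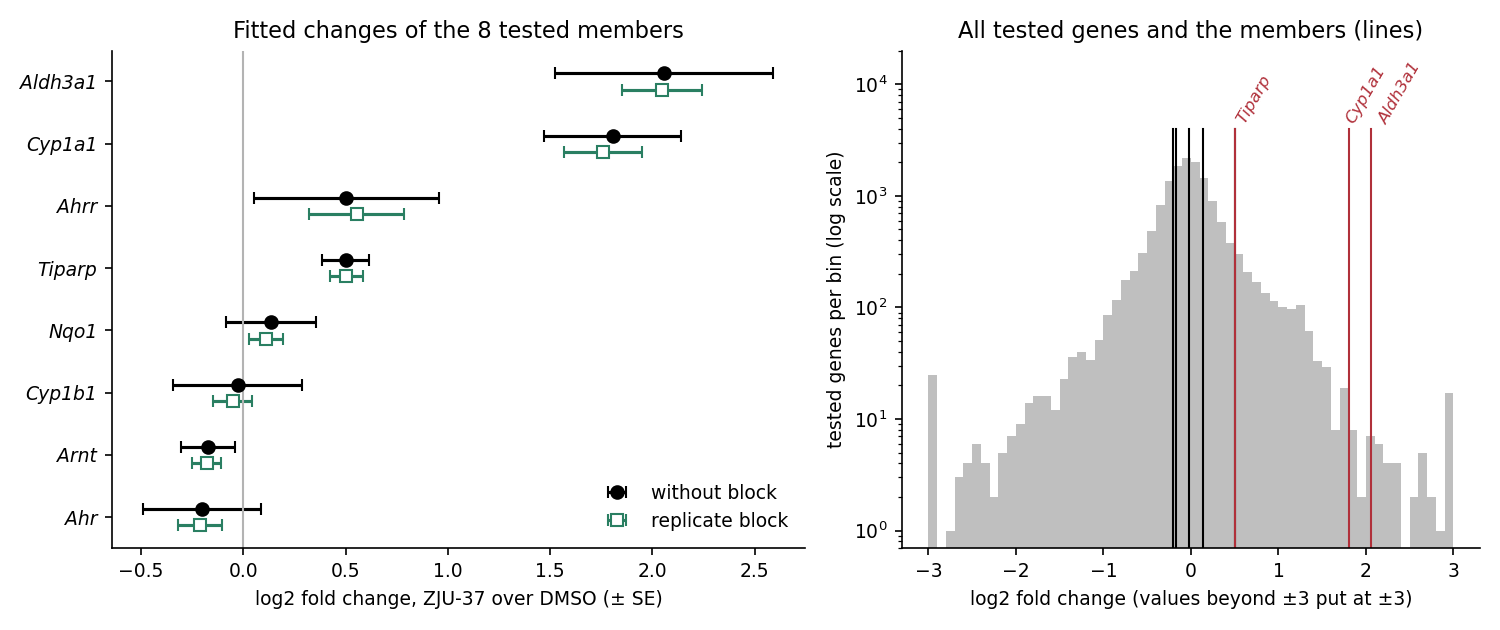
Left, log2 fold change of ZJU-37 over DMSO with its standard error for the 8 tested genes, without and with the replicate block. Right, the number of tested genes by log2 fold change (log axis for the counts), with a line for each of the 8 genes, red where called. Aldh3a1 and Cyp1a1 lie in the right tail at 2.06 and 1.81, and Tiparp at 0.50.

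Levels of different genes were compared per length, in FPKM (fragments scaled by gene length and library size). In the DMSO libraries Nqo1 was first with 110.3 ± 16.6 FPKM, followed by Cyp1b1 with 61.9 ± 17.9 FPKM (SD, n = 3). Arnt (15.7 FPKM), Tiparp (9.10 FPKM) and Ahr (3.95 FPKM) followed, each with library ranges clear of its neighbours. Aldh3a1, Ahrr and Cyp1a1 came last of the detected genes with 1.59, 1.26 and 0.93 FPKM, and the ranges of neighbours overlapped. With ZJU-37 the first 4 places were the same, but the ranges of Arnt (13.9 ± 2.17 FPKM) and Tiparp (12.9 ± 0.87 FPKM) now overlapped. Aldh3a1 followed with 6.68 ± 3.85 FPKM, and its range overlapped that of Ahr (3.43 ± 1.12 FPKM). The range of Ahr overlapped that of Cyp1a1 (3.23 ± 1.39 FPKM), which overlapped that of Ahrr (1.79 ± 0.67 FPKM). Thus the genes with called increases of over 1 on the log2 scale were among the lowest in level, and the 2 most abundant targets were not called.

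The replicate number went with the level of several of these genes. This was noticed in the values and tested afterwards, with the replicate term of the block fit. The term had an adjusted p under 0.05 in 5 of the 8 genes (edgeR), against 15.5% of all tested genes. These were Ahr (0.00721), Aldh3a1 (0.00745), Cyp1b1 (0.00967), Nqo1 (0.0141) and Arnt (0.0468). In Ahr, Ahrr, Cyp1b1 and Nqo1 both replicate 3 libraries were above the other 4, as in 6.18% of all tested genes. Relative to the mean of replicates 1 and 2, replicate 3 of Ahr was higher by 0.64 with DMSO and by 0.77 with ZJU-37 on the log2 scale. For Cyp1b1 the same differences were 0.63 and 0.91, and for Aldh3a1 they were 0.999 and 1.34.

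Markers of astrocytes and of several other cell types moved with the replicate number as well. The summed level of the 6 astrocyte markers was 1279, 889.8 and 1494 CPM with DMSO and 989.8, 802 and 1232 CPM with ZJU-37. The replicate term was called for 6 of the 6 astrocyte markers (3 of the 6 had both replicate 3 libraries on top). It was also called for 6 of 8 microglia, 5 of 7 OPC and 4 of 6 neuron markers. The term was called for 3 of 5 mural and fibroblast, 2 of 7 mature oligodendrocyte and 0 of 3 endothelial markers, beside 15.5% of all tested genes. The 6 mural cell and fibroblast markers, of which Col1a1 gave most of the signal, summed to 47.1, 43.6 and 84.4 CPM with DMSO and to 23.3, 38.0 and 64.1 CPM with ZJU-37. Here too replicate 3 was the highest of both groups, while Rgs5 was at or near 0. Microglia markers were instead highest in replicate 2, with sums of 2472 and 2181 CPM. In bulk RNA, more cells of a type and more RNA per cell cannot be told apart. The part of astrocytes, mural cells or fibroblasts in the levels of Ahr, Cyp1b1 and Nqo1 was not tested.

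The gene with the pattern most like that of Ahr over the 6 libraries was the astrocyte marker Aldh1l1. Likeness was the root mean square difference in log2 CPM after each gene was centred, over 13892 candidate genes with at least 1 CPM, and it was 0.0709 for Aldh1l1. Icoslg (0.0784), Tmem200a (0.0788), Cp (0.0813) and Oaf (0.0899) came next. Cp encodes the copper-binding ferroxidase ceruloplasmin. For Aldh3a1, the member with the largest change, Cyp1a1 came second with 0.483, after AABR07066677.1 with 0.469. AABR07016572.1 (0.492), the receptor gene Cd93 (0.498) and Prph (0.5), which encodes the intermediate filament peripherin, followed. These distances were close to each other and larger than those found for Ahr. Same-numbered libraries deviated together, so the 6 points are not independent and likeness is a description.

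**Figure D3:**
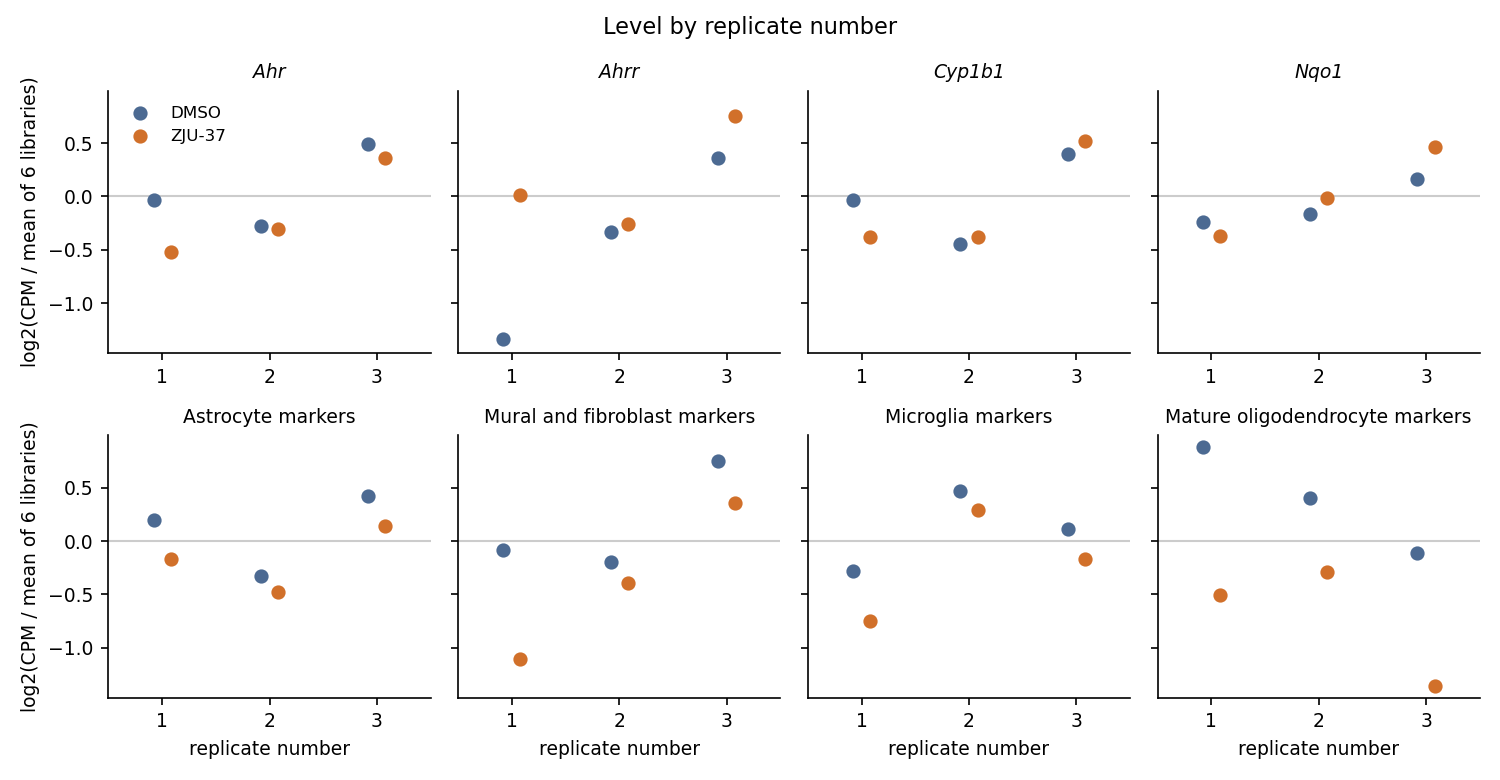
Level of 4 AHR genes (top) and summed level of 4 marker lists (bottom) by replicate number, as log2 of CPM over the mean of the 6 libraries, with DMSO and ZJU-37 in separate colours. Replicate 3 is the highest of its group for Ahr, Ahrr, Cyp1b1 and Nqo1 and for the astrocyte and the mural cell and fibroblast markers, but not for microglia or mature oligodendrocyte markers.

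The labelled cell type was checked against its markers. The 7 OPC markers summed to between 3857 and 4476 CPM with DMSO and to between 4411 and 6075 CPM with ZJU-37. Pdgfra, Cspg4, Olig1 and Ptprz1 were called higher, with log2 fold changes of 1.10, 1.04, 0.64 and 0.54. Sox10 and Gpr17 were called lower, with -0.61 and -3.43 (edgeR). In all, 85.7% of the OPC markers were called, beside 15.0% of all tested genes. The 4 higher calls became 1 without DMSO replicate 2 or DMSO replicate 3. The 2 lower calls became 1 without any one of DMSO replicates 1, 2 and 3 and ZJU-37 replicates 2 and 3, with library size alone and with upper-quartile scaling. The 7 mature oligodendrocyte markers summed to between 11090 and 22050 CPM with DMSO and to between 4665 and 9759 CPM with ZJU-37, so the groups did not overlap. Of these, Cnp (-1.36) and Myrf (-1.69) were called lower, as 5.58% of all tested genes were. Both DESeq2 and the block fit called 5 of the 7 lower, beside 15.9% of all tested genes in the block fit. Among the astrocyte, microglia, endothelial, mural and neuron markers 0 were called in edgeR and 0 in DESeq2. At an unadjusted p under 0.05 there was 1, the neuron marker Syt1 (-0.47). In the block fit 3 of 6 astrocyte and 2 of 8 microglia markers were called lower. So were 1 of 3 endothelial, 1 of 5 mural and 2 of 6 neuron markers, beside 15.9% of all tested genes. The endothelial marker Cldn5 had 0 counts in all 6 libraries. The part of these shifts in the higher Cyp1a1, Aldh3a1 and Tiparp was not tested. In each of the 3 pairs the ZJU-37 library had the higher level of these 3 genes and the higher OPC sum, and the lower mature oligodendrocyte, astrocyte, microglia, endothelial, mural and neuron sums.

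Around the receptor, 7 further lists of genes were examined. The AHR chaperone and turnover list holds 6 genes, of which 0 were called in edgeR, beside 15.0% of all tested genes. At an unadjusted p under 0.05 there were 3, where 4205 of all 14670 tested genes passed. DESeq2 called 2 of the 6, where it called 2600 genes in all. Ptges3, which encodes p23, had a log2 fold change of 0.15 (adjusted p = 0.111, and 0.0346 with the block, edgeR).

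Among bHLH-PAS relatives and coactivators, 1 of 14 tested genes (7.14%) was called, beside 15.0% of all tested genes. The called gene was Npas4, an activity-regulated factor, with a log2 fold change of -1.16 (adjusted p = 0.0494 in edgeR) and between 0.537 and 1.91 CPM in the libraries. The list had 0 lower calls in each of the 6 fits that left out a library, with library size alone, with upper-quartile scaling and without a filter on low counts. With the block 1 gene was called higher and 2 lower, beside 16.2% and 15.9% of all tested genes. In the list of other AHR targets 2 of 10 tested genes were called, both higher, beside 9.43% of all tested genes. Ccnd1, which encodes the G1 cyclin D1, had a log2 fold change of 1.37 (adjusted p = 4.1e-04 in edgeR). Slc7a5, which encodes the light chain of the amino acid transporter that carries tryptophan and kynurenine, had 422, 429 and 402 CPM with DMSO and 695, 734 and 718 CPM with ZJU-37. Slc7a5 rose by a log2 fold change of 0.78 (adjusted p = 5.7e-04 in edgeR). With the block 3 were called higher and 2 lower, beside 16.2% and 15.9% of all tested genes.

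Of the enzymes of tryptophan and kynurenine metabolism, a source of AHR ligands, 1 of 8 tested genes (12.5%) was called, beside 15.0% of all tested genes. Qprt, which converts quinolinic acid on the way to NAD, had 8.26, 9.49 and 9.98 CPM with DMSO and 27.8, 24.3 and 24.0 CPM with ZJU-37. Its log2 fold change was 1.45 (adjusted p = 5.2e-04 in edgeR), and the groups were far apart. Ido1, Tdo2 and Kynu, which begin or continue the breakdown of tryptophan to kynurenines, had 0 counts in all 6 libraries. Il4i1, which makes AHR ligands from tryptophan by another route, had between 3.83 and 6.05 CPM and was not called.

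In the NRF2 list, which concerns the other regulator of Nqo1, 2 of 12 tested genes (16.7%) were called, both higher, close to the 15.0% called in either direction among all tested genes. Gclm, a subunit of the first enzyme of glutathione synthesis, had a log2 fold change of 0.45 (adjusted p = 0.0253 in edgeR), and Me1, the malic enzyme, one of 0.43 (adjusted p = 0.0356). With the block 4 of the 12 were called higher, beside 16.2% of all tested genes. The list had 0 calls without DMSO replicate 2 or ZJU-37 replicate 3, and 1 without DMSO replicate 1, DMSO replicate 3 or ZJU-37 replicate 2. Hmox1, the heme oxygenase gene that NRF2 induces strongly, had -0.04 (adjusted p = 0.955, edgeR), and the median of the list was -0.00433.

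Other aldehyde dehydrogenases did not share the change of Aldh3a1 in size. Of 15 tested genes, Aldh1l2 was called higher (log2 fold change 0.68, adjusted p = 0.0306 in edgeR) and Aldh6a1 lower (-0.48, adjusted p = 0.00362). The 2 calls are 13.3% of the list, beside 15.0% of all tested genes, and the higher call was lost without DMSO replicate 2 or ZJU-37 replicate 3. The median of these genes was -0.15, and with the block 4 were called higher and 4 lower, beside 32.1% of all tested genes called in either direction. Among other xenobiotic receptors and drug metabolism genes 0 of 14 were called in edgeR, beside 15.0% of all tested genes. At an unadjusted p under 0.05 there was 1, where 4205 of all 14670 tested genes passed. DESeq2 also called 1, where it called 2600 genes in all. Ephx1, which encodes microsomal epoxide hydrolase, had 44.9, 39.0 and 56.2 CPM with DMSO and 62.4, 63.9 and 81.3 CPM with ZJU-37. The groups of Ephx1 did not overlap, with a log2 fold change of 0.57 (adjusted p = 0.0659 in edgeR, and called with the block). Rxrb, a retinoid X receptor, had -0.12 (adjusted p = 0.277, edgeR).

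**Figure D4:**
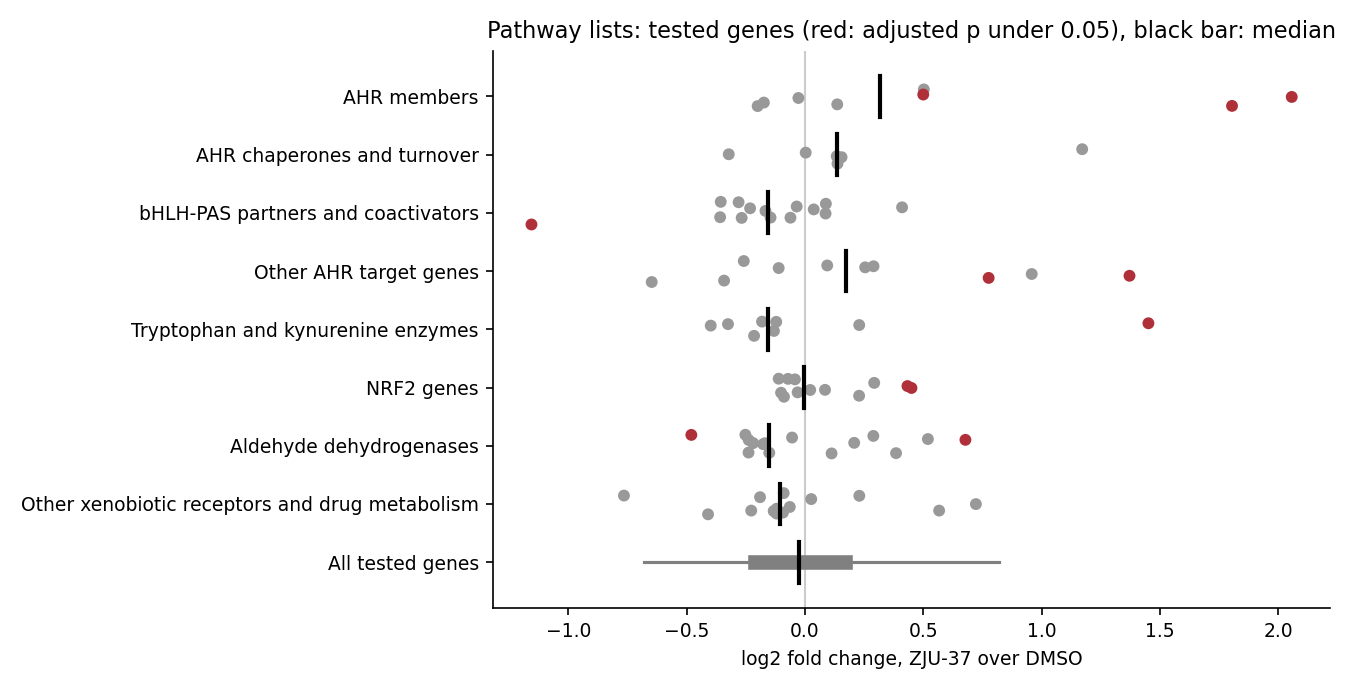
Log2 fold change of ZJU-37 over DMSO for each tested gene of the AHR group and of 7 lists, with called genes in red and the median as a black bar. The last row gives all tested genes (thick line, middle 50%; thin line, middle 90%). Medians of the 7 lists lie between -0.16 and 0.17, that of the AHR genes at 0.32.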

How the data were processed

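Poly-A RNA of 3 DMSO and 3 ZJU-37 libraries was sequenced. Per the labels, the authors used HISAT2 2.0.5, StringTie 1.3.3b and featureCounts 1.5.0. Genome build and counting options are not given in the sources used here. The deposited raw counts per gene were tested. The deposited FPKM values, made by the authors from counts and gene length, served for levels between genes. The authors' own group means, fold changes and p-values in the table were not used. Library totals are given with the samples.

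After filterByExpr and TMM normalization, genes were tested with edgeR 4.0.16 in R 4.3.3 (glmQLFit, robust, and glmQLFTest) without a block, with Benjamini-Hochberg adjustment. Standard errors came from the log2 fold change and F. Log2 CPM used a prior count of 2. The fits were run on simulated counts that held no replicate effect, so that run cannot check how the block or the replicate term handles one. No library was a duplicate (chi-square of 11.3 or more for each degree of freedom within a group). Alternatives were DESeq2 1.42.0, limma 3.58.1 on counts (voom) and on log2(FPKM + 1) or log2(FPKM + 0.1), other normalizations, filters and thresholds, the replicate block, and leaving out each library. The replicate term was added after the values were seen.

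Replicate numbers from the labels were taken to pair the samples. After the group mean was subtracted, libraries sharing a number had correlations over genes of 0.394, 0.312 and 0.329, and all those of unlike number were under 0.

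The AHR genes and all lists were chosen with earlier results of these data known. Of 148 list genes 137 were found in the table, 0 of them under an older symbol. Named genes were the AHR genes, from each list at most 4 called genes (or, with none called, the 2 with the smallest p), called markers, and the 5 nearest genes in pattern. Other names (Hmox1, Il4i1, Ido1, Tdo2, Kynu, Syt1, Cldn5, Rgs5 and Col1a1) were chosen after their values were seen. A result for 1 list gene is not reported here.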

Additional observations from a re-analysis of the deposited data

How the results depend on the processing

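Without the replicate block 2201 genes were called, and with the replicate block, which follows the pairing, 4705. At an adjusted p under 0.01 the count was 1053, and at an unadjusted p under 0.05 it was 4205. Leaving out each library in turn gave 1306 to 1927 genes, and 0 to 3 of the 3 called AHR genes, with 0 without DMSO replicate 1 or 2 and 1 without ZJU-37 replicate 2 or 3. At an adjusted p under 0.01, 0 of the 3 passed. The block changed no other call among the 8 genes. Cyp1a1, Tiparp and Aldh3a1 were higher in each of the 17 fits and called in 15, 13 and 9 of them. Adjusted p-values over these fits ran from 6.6e-06 to 0.0601 for Cyp1a1, from 0.00114 to 0.102 for Tiparp and from 6.4e-05 to 0.146 for Aldh3a1. With limma on log2(FPKM + 1) the log2 fold change of Cyp1a1 was 1.09, since the pseudocount is near its level. Aldh3a1 was not called without a filter on low counts (0.0976), with limma-voom (0.0839) or on log2(FPKM + 0.1) (0.0506), and the cause was not tested. Leaving out each library gave log2 fold changes from -0.4849 to 0.047 for Ahr, from -0.091 to 0.3319 for Nqo1 and from -0.3737 to 0.21 for Cyp1b1. Signs turned for Ahr without DMSO replicate 3, for Nqo1 without ZJU-37 replicate 3, and for Cyp1b1 without DMSO replicate 3 (0.21), ZJU-37 replicate 1 (0.15) or ZJU-37 replicate 2 (0.15). These fits had no block and kept the partner of the library left out. The order of levels was the same with TMM counts per kilobase. The core GCGTG was in 5 promoters and TNGCGTG in 2. At this depth Cyp1a2, with 1 count in all, could not be tested.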
